A study of Mus musculus with 30 samples.

Results

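Microglia sorted at day 35 of experimental autoimmune encephalomyelitis (EAE) from mice with Atg7 deleted through Cx3cr1-driven Cre (KO) were compared directly with microglia sorted at the same time from old mice. Libraries were chosen by their titles, which gave 4 KO and 3 old libraries, 7 of the 30 in the series. The KO libraries came from young C57BL/6 mice labelled Atg7fl/fl Cx3cr1CreERT. The old libraries came from mice labelled old and ATG7 wild type, and the labels do not state whether these mice carried the Cre allele. Tamoxifen was given as 3 doses of 4 mg, 48 h apart, and EAE was induced at least 18 days later with myelin oligodendrocyte glycoprotein residues 1 to 125 and pertussis toxin. Each sample was described as a pool of female and male animals. The count columns of KO 2, old 1 and old 2 are named by 1 number. Those of the rest of the day 35 pair are named by 2, and whether these number animals is not stated. The gate for live cells took those that were CD11b+, CD45int and Ly6G-, those that were eYFP+, or both. Beside the day 35 pair, use was made of 4 naive KO and 4 naive old libraries, from mice without EAE, and of the 4 wild-type (WT) libraries of day 35, of which WT 3 carries a knockout status that disagrees with its title. Age and genotype differ together between KO and old mice, so that the effect of the one cannot be told apart from that of the other.

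EAE is an induced autoimmune attack on myelin, and microglia, the macrophages that reside in brain and spinal cord, take up the debris and shape the later course of the disease. Atg7 is the E1-like enzyme that activates ATG12 and the LC3 and GABARAP proteins, and without it autophagosomes do not form by the usual route and LC3-associated phagocytosis is lost. Around demyelinated tissue microglia turn down homeostatic genes such as Tmem119 and P2ry12 and take on a disease-associated state with Apoe, Lpl, Igf1, Clec7a, Itgax and Cst7, much of which is also higher in microglia of aged mice.

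The day 35 KO libraries held 6698954 to 7372295 counts and the day 35 old libraries 6813571 to 8158384. The EAE score, given once per sample, averaged 2.75 ± 0.204 in KO samples (SD, n = 4) and 2.83 ± 0.144 in old samples (SD, n = 3). The difference was −0.0833 (exact permutation test, two-sided, p = 0.971). Over 35 possible assignments of the 7 libraries the smallest p this test can give is 0.0571, so that it could not pass 0.05. The RNA integrity number ran from 9.55 to 10 in KO and from 9.9 to 10 in old samples, and the mitochondrial share of counts from 6.997 to 8.91% in KO and from 7.31 to 8.84% in old samples. The labels do not say whether replicates came from separate cohorts, so p-values measure the spread between these samples.

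Core microglial markers were abundant in all 7 libraries, and 1 library stood apart. The 13 core microglial markers summed to 19880, 19690, 21210 and 14080 CPM (read counts scaled to TMM-adjusted library size) in KO 1 to 4, and to 10100, 25590 and 19430 CPM in old 1 to 3. T and NK cell markers summed to at most 8.37 CPM in any of the 7. Y-linked genes summed to 22.58, 32.64, 122.2 and 99.8 CPM in KO 1 to 4. In old 1 to 3 they summed to 105.1, 4.997 and 59.06 CPM. Old 2 thus held little RNA of Y-linked genes, although each sample was described as a pool of both sexes. The share of each sex in the samples was not tested. Old 1 was more than 4-fold above each of the other 6 libraries in 448 genes and more than 4-fold below in 27, whereas no other library exceeded 1 gene above and 6 below. The median absolute log2 difference over genes was 0.395 to 0.471 between old 1 and each other library, 0.148 to 0.313 between KO libraries, and 0.241 between old 2 and old 3. KO 1, KO 2 and KO 3 differed from old 2 or old 3 by no more than 0.234, within the range seen among KO libraries. KO 4 differed by 0.243 from old 3 and by 0.3595 from old 2, the second of these above every difference between KO libraries. Results that rest on old 1 are therefore given with and without it.

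No gene passed the test between KO and old microglia at day 35. edgeR's quasi-likelihood test with Benjamini-Hochberg adjustment called 0 of 13880 genes at 0.05 (0%), and the lowest adjusted p was 0.307. At an unadjusted p under 0.05 there were 1350 genes (9.73%), 285 higher (2.05%) and 1065 lower (7.67%) in KO. DESeq2 also called 0, with 1344 at an unadjusted p under 0.05. With only the groups compared in the fit, edgeR called 0, and 337 of 12791 genes had an unadjusted p under 0.05. The lowest edgeR adjusted p of that fit was 0.942. Without old 1 the count remained 0 and 351 of 14296 genes (2.46%) had an unadjusted p under 0.05. Without old 3, which leaves old 1 and old 2, 16 genes were called higher (0.112%) and 493 lower (3.44%) of 14342, and the call count thus rested on which old library was left out. The lower calls in that setting began with Prg2, Epx and Prss34, granule genes of eosinophils and basophils, and held 8 of 14 neutrophil and 7 of 36 cell cycle genes.

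With the spread shared over all 8 groups in the fit, large differences were bounded for most genes. No interval was computed from the spread of the day 35 pair alone, in which old 1 stood apart. The 95% interval of the log2 fold change of KO over old (log2FC, with its standard error SE) lay within 1 log2 unit of 0 for 9545 genes (68.8%), and for 9464 of 14296 (66.2%) without old 1. In 293 genes (2.11%) every KO library was above every old library, and in 255 (1.84%) every KO library was below. Sqor, a mitochondrial sulfide oxidase, had the lowest p of all genes, at 35.6, 39.1, 33.9 and 37.1 CPM in KO 1 to 4 and at 74.7, 50.4 and 36.9 CPM in old 1 to 3 (log2FC −0.56, SE 0.144, edgeR adjusted p = 0.307). Its old 3 library lay within the KO range. Without old 1 the lowest p was that of Nid2, a basement membrane protein, at 13.2, 14.5, 16.3 and 11.2 CPM in KO and at 27.9 and 21.9 CPM in old 2 and old 3 (log2FC −0.86, SE 0.198, edgeR adjusted p = 0.998). Old 1, at 6.76 CPM, lay below every KO library for Nid2.

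Among genes with every KO library above every old library, Cacna1a, the pore subunit of a neuronal P/Q-type calcium channel, had the lowest p. Its level was 65.96, 66.8, 57.7 and 86.5 CPM in KO 1 to 4, against 42.2, 38.4 and 54.7 CPM in old 1 to 3 (log2FC 0.62, SE 0.172, 95% interval 0.26 to 0.98, edgeR adjusted p = 0.307). Gadd45b, a stress-induced growth arrest gene, was at 26.3, 36.1, 39.7 and 34.3 CPM in KO against 20.4, 19.4 and 26.1 CPM in old (log2FC 0.64, SE 0.196, 95% interval 0.23 to 1.04). The lowest KO library lay just above the highest old library for Gadd45b and by a few CPM for Cacna1a. Plau, the urokinase-type plasminogen activator, averaged 202.3 ± 12.5 CPM in KO (SD, n = 4) and 155.1 ± 20.2 CPM in old libraries (SD, n = 3; log2FC 0.38). Apbb2, an adaptor that binds the amyloid precursor protein, was at 102.3 to 120 CPM and 71.0 to 100 CPM (log2FC 0.36), and Mapkbp1, a scaffold of JNK signalling, at 26.3 to 31.3 CPM and 18.5 to 22.7 CPM (log2FC 0.51). Nrxn3, a presynaptic adhesion molecule, and Cspg5, a brain proteoglycan, had the largest fold changes of this set at log2FC 2.16 and 1.57, from KO levels of 1.83 to 12.5 and 3.74 to 6.90 CPM and old levels of 1.10 to 1.45 and 0.48 to 2.75 CPM. Nrxn3 was highest in KO 4, the library with the highest sum of 8 neuronal markers (159 CPM), and the part of neuronal RNA in its value was not tested. Meis1, Tada2a, Sergef, Dhx37 and Atp8b1 completed the 12, with log2FC from 0.29 to 0.74.

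Among genes with every KO library below every old library, St3gal5, the synthase of the ganglioside GM3, had the lowest p (0.000528). It was at 109, 106, 102.2 and 82.1 CPM in KO 1 to 4 and at 137, 151 and 111 CPM in old 1 to 3 (log2FC −0.42, SE 0.107, 95% interval −0.64 to −0.19). Nfatc3, a calcium-regulated transcription factor, was at 63.6 to 77.7 CPM in KO and 83.6 to 94.1 CPM in old libraries (log2FC −0.33). Naa60, an N-terminal acetyltransferase of the Golgi, was at 45.7 to 55.3 CPM and 57.6 to 69.8 CPM (log2FC −0.32). For these 3 genes old 1 lay near the other old libraries. In 8 of the remaining 9 it was the highest library of the 7 by a wider margin: Ampd3, an AMP deaminase, was at 30.1 to 33.1 CPM in KO and at 104.3, 37.3 and 35.3 CPM in old 1 to 3 (log2FC −0.88, and −0.19 without old 1). Ncoa4, the autophagy receptor for ferritin, was at 4.51 to 7.64 CPM in KO and at 15.8, 8.65 and 9.84 CPM in old 1 to 3 (log2FC −0.86, and −0.56 without old 1). Sass6, Sos2, Usp46, Trp53inp1, Rnf19a and Xk also had old 1 highest, with log2FC from −0.96 to −0.49, and Txnl4b was at 3.10 to 5.91 CPM in KO and 7.24 to 7.89 CPM in old libraries (log2FC −0.75).

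**Figure D1:**
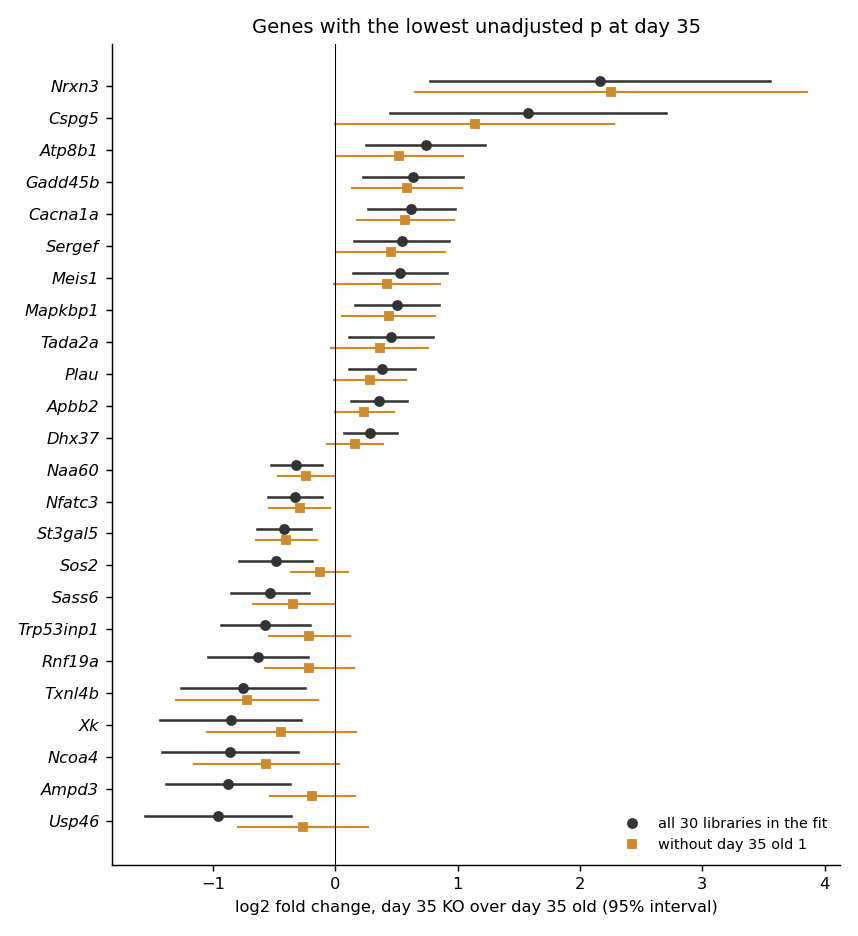
Log2 fold change of day 35 KO over day 35 old with its 95% interval for the 24 genes with the lowest unadjusted p whose groups do not overlap, with all libraries (circles) and without old 1 (squares). The estimates of the 12 higher genes stay above 0 in both fits, though some intervals reach 0 without old 1, Cacna1a at 0.62 and 0.57, whereas several of the lower genes, such as Ampd3 at −0.88 and −0.19, move towards 0 without old 1.

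Atg7 overlapped between the groups at the level of the whole gene. It was at 33.3, 32.5, 30.3 and 33.8 CPM in KO 1 to 4 and at 67.8, 27.5 and 24.2 CPM in old 1 to 3 (log2FC −0.29, SE 0.316, edgeR adjusted p = 0.873, and log2FC 0.32 without old 1). A gene-level count does not resolve the deleted exons and therefore does not check the deletion. Of the 16 genes of the Atg8 conjugation machinery none was called, 4 had a positive fold change and the median was −0.06, beside −0.01 over all genes (9 of 16 and 0.04 without old 1). Atg5, which conjugates with ATG12, was at 34.02 to 47.3 CPM in KO and 41.8 to 49.7 CPM in old libraries (log2FC −0.21), and the substrate Map1lc3b was at 41.2 to 50.01 CPM and 42.8 to 54.9 CPM (log2FC −0.04). The interval lay within 1 log2 unit of 0 for 14 of these 16 genes and for 24 of 27 genes of autophagy initiation and cargo receptors. Sqstm1, the cargo receptor p62, was at 202.8 to 257 CPM in KO and 193 to 230 CPM in old libraries (log2FC 0.12, 95% interval −0.12 to 0.37). Wipi1, which binds the nascent autophagosome membrane, was the member with the lowest p of that list, at 9.13 to 11.9 CPM in KO and 44.4, 12.1 and 10.4 CPM in old 1 to 3 (log2FC −1.08, and −0.11 without old 1). Of 35 lysosomal genes none was called and 31 had an interval within 1 log2 unit.

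Cx3cr1 encodes the receptor for fractalkine, and the Cre allele sits at its locus. It was at 651, 700, 1498 and 962 CPM in KO 1 to 4 and at 1312, 790 and 1012 CPM in old 1 to 3 (log2FC −0.12, SE 0.469, 95% interval −1.10 to 0.85). Its levels overlapped at day 35, although in naive mice they were 118 to 291 CPM in KO and 3916 to 4554 CPM in old libraries (log2FC −4.66, SE 0.508, edgeR adjusted p = 1.9e-05). Esr1 encodes the estrogen receptor, whose ligand-binding domain is the part of a CreERT fusion that responds to tamoxifen. It was at 165, 153, 92.7 and 75.7 CPM in day 35 KO 1 to 4, and at 14.8, 181 and 119 CPM in day 35 old 1 to 3. In naive mice Esr1 was at 215 to 250 CPM in KO and 16.9 to 27.8 CPM in old libraries (log2FC 3.33, SE 0.426, edgeR adjusted p = 6.4e-05). Old 1 was thus at the level of the naive old libraries for Esr1, and old 2 and old 3 were at the level of the day 35 KO and WT libraries, the WT being at 138.4 to 187 CPM. Whether reads of the Cre allele were counted under Esr1, and whether the old mice of the naive and the day 35 groups carried the same Cx3cr1 alleles, was not tested.

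Homeostatic genes had a median near that of all genes, and their sign depended on old 1. None of 33 was called, 22 had a positive fold change, the median was 0.04 and 31 had an interval within 1 log2 unit of 0. Without old 1, 2 of 33 were positive and the median was −0.25. Tmem119 was at 1438, 1360, 1633 and 923 CPM in KO 1 to 4 and at 494, 1952 and 1298 CPM in old 1 to 3 (log2FC 0.10, and −0.28 without old 1), and the purinergic receptor P2ry12 at 1187, 1232, 1052 and 787 CPM against 443, 1771 and 1153 CPM (log2FC −0.08, and −0.46 without old 1). Old 1 was lowest and old 2 highest of the 7 libraries for both genes. In this bulk design fewer microglia in a sort and less RNA per microglial cell cannot be told apart. The 14 neutrophil markers summed to 32320 CPM in old 1, against 692 to 3862 CPM in the other 6 libraries, and their part in the low homeostatic values of old 1 was not tested.

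Most disease-associated genes had a positive fold change, and no member was called. Of 37 genes, 30 had a positive log2 fold change, beside 48.7% of all genes, and the median was 0.20, beside −0.01 over all genes. Without old 1 these were 31 of 37 and 0.39, beside 53.6% and 0.02 over all genes. In 4 of the 37, namely Igf1, Csf1, Ccl3 and Ccl4, every KO library was above every old library, beside 2.11% of all genes, and the interval lay within 1 log2 unit for 20.

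Lpl, the lipoprotein lipase, was at 247, 230, 273 and 163.4 CPM in KO 1 to 4 and at 131, 126.4 and 169.4 CPM in old 1 to 3 (log2FC 0.68, SE 0.278, 95% interval 0.11 to 1.26, edgeR adjusted p = 0.399). Of the KO libraries only KO 4 lay within the old range. The lipid carrier Apoe was at 24410, 20860, 37900 and 16110 CPM in KO against 13520, 15810 and 18060 CPM in old (log2FC 0.65, SE 0.55), and Apoc1, its neighbour in the same gene cluster, at 24.5, 23.1, 47.0 and 15.8 CPM against 4.18, 11.7 and 16.1 CPM (log2FC 1.37, SE 0.537, edgeR adjusted p = 0.370). KO 3 was the highest and KO 4 the lowest KO library for all 3 of these lipid genes. The sterol synthesis genes had 4 of 24 positive and a median of −0.15, with 15 of 24 positive and 0.11 without old 1. Acsl1, which activates long-chain fatty acids, was at 51.1 to 61.1 CPM in KO and 174, 67.8 and 55.0 CPM in old 1 to 3 (log2FC −0.83, and −0.15 without old 1).

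Several secreted factors had every KO library above every old library, as did 2.11% of all genes. These factors were named by lowest p or after their values were seen. Igf1, a trophic factor for neurons and oligodendrocytes, was at 72.3, 64.1, 82.9 and 50.8 CPM in KO 1 to 4 and at 41.4, 25.1 and 46.7 CPM in old 1 to 3 (log2FC 0.84, SE 0.397, 95% interval 0.02 to 1.67, edgeR adjusted p = 0.498). Csf1, a ligand of the receptor on which microglia depend, was at 210, 222, 253 and 221 CPM against 189, 131 and 204.7 CPM (log2FC 0.37, SE 0.241). The groups did not overlap for either gene, and the lowest KO library was within a few CPM of the highest old library. The chemokines Ccl3 and Ccl4 were at 292 to 365 CPM in KO against 153 to 250 CPM in old and at 229 to 266 CPM against 133.6 to 197 CPM (log2FC 0.68 and 0.66). Cxcl14 was at 16.6, 12.4, 16.6 and 10.7 CPM in KO and at 5.79, 5.24 and 8.83 CPM in old (log2FC 1.09, SE 0.414, edgeR adjusted p = 0.342). Over the lists, 10 of 19 chemokines (16 of 19 without old 1) and 15 of 22 growth factors and receptors had a positive fold change, with medians of 0.02 (0.49 without old 1) and 0.07 (0.16 without old 1).

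Receptors of the disease-associated state, and also Cst7, overlapped between the groups. Clec7a, the beta-glucan receptor dectin-1, was at 129 to 155 CPM in KO and at 178, 89.1 and 105 CPM in old 1 to 3 (log2FC 0.22). Itgax, the integrin CD11c, was at 156.3, 150, 170 and 129 CPM in KO and at 131, 121 and 129 CPM in old (log2FC 0.25), and the cystatin Cst7 at 80.1 to 122.2 CPM and 56.7 to 110 CPM (log2FC 0.34). Trem2, the lipid-sensing receptor upstream of this state, was at 551 to 851 CPM and 344 to 828 CPM (log2FC 0.20, 95% interval −0.19 to 0.60). Itgb2, the common chain of the CD11 integrins, was the list's lowest p and lay the other way, at 481 to 596 CPM in KO and 922, 708 and 550 CPM in old 1 to 3 (log2FC −0.40, and −0.19 without old 1).

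Interferon and antigen presentation genes had no call and medians near 0. Among 37 type I interferon response genes none was called, 6 were positive with a median of −0.14, and without old 1 these became 23 of 37 and 0.06. Oas3, an antiviral oligoadenylate synthetase, had the lowest p of the list at 8.09 to 14.3 CPM in KO and 45.7, 14.1 and 12.3 CPM in old 1 to 3 (log2FC −1.07, and −0.22 without old 1). All 22 MHC class I genes had an interval within 1 log2 unit of 0, H2-K1 being at 1103 to 1410 CPM in KO and 1142 to 1202 CPM in old libraries (log2FC 0.04, 95% interval −0.34 to 0.43). Of 10 MHC class II genes 3 were positive, with a median of −0.05, and without old 1 these became 7 of 10 and 0.12.

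Heat shock and immediate early genes mostly had positive fold changes and passed no test. All 15 heat shock genes had a positive fold change with a median of 0.36, and 14 of 15 and 0.23 without old 1. Hspb1, a small heat shock protein, was at 4.01 to 8.73 CPM in KO and 0.80 to 3.76 CPM in old libraries (log2FC 1.44, SE 0.62), and the chaperone Hspa1a was at 463 to 577 CPM and 248, 233 and 522 CPM in old 1 to 3 (log2FC 0.67). Old 3 thus lay in the KO range for Hspa1a. Of 24 immediate early genes 15 were positive with a median of 0.19, and all 24 were positive with a median of 0.40 without old 1. Fos was at 399 to 474 CPM in KO and at 685, 263 and 361 CPM in old 1 to 3, so that old 1 lay above and old 2 and old 3 below every KO library.

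Energy and redox genes had no call, and their lowest p-values rested on old 1. Of 52 nuclear genes of oxidative phosphorylation 51 had an interval within 1 log2 unit of 0, with 24 positive and a median of −0.01 (31 and 0.06 without old 1). Glycolysis genes had 8 of 22 positive and a median of −0.14, against 18 of 22 and 0.13 without old 1. Hk1, which starts glycolysis, was at 34.5 to 40.8 CPM in KO and at 94.8, 37.3 and 31.99 CPM in old 1 to 3 (log2FC −0.57, and 0.08 without old 1). Among 20 antioxidant genes 7 were positive with a median of −0.14, against 11 and 0.02 without old 1, and G6pdx, which supplies NADPH, was at 48.0 to 55.0 CPM in KO and at 271, 69.2 and 46.2 CPM in old 1 to 3 (log2FC −1.29, and −0.14 without old 1). Of 27 Toll-like receptor and NF-kappaB genes 25 had an interval within 1 log2 unit, and of 25 uptake receptors for myelin and debris 16 were positive (11 of 26 without old 1).

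Proliferation and infiltrating cell genes were highest in old 1. Of 36 cell cycle genes 2 were positive and the median was −1.32, against 32 positive and 0.40 without old 1. Mki67, a marker of cycling cells, was at 54.7, 75.6, 58.6 and 180 CPM in KO 1 to 4 and at 1083, 73.7 and 46.9 CPM in old 1 to 3 (log2FC −2.12, and 0.61 without old 1). The summed neutrophil markers were 1225, 1164, 667 and 3862 CPM in KO and 32320, 2482 and 692 CPM in old, and the summed monocyte markers 1079, 976, 966 and 1389 CPM against 4726, 470 and 657 CPM. KO 4 was the highest KO library and old 1 the highest old library for each of these sums. S100a9, a neutrophil alarmin, was at 157, 168.9, 32.7 and 972 CPM in KO and 8042, 525 and 17.9 CPM in old (log2FC −3.10, and 0.29 without old 1). Monocyte markers had 0 of 12 positive, and 10 of 12 without old 1, with the sum of each KO library above those of old 2 and old 3.

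Markers of other brain cells mostly had positive fold changes. The 8 neuronal markers were all positive (median log2FC 1.56), yet they summed to 87.5, 50.3, 7.604 and 159 CPM in KO 1 to 4 against 8.05, 56.1 and 45.3 CPM in old 1 to 3, and the groups overlapped. Rbfox3, the neuronal nuclear antigen, was at 3.12, 3.29, 0.42 and 7.08 CPM in KO against 0.48, 1.34 and 0.58 CPM in old, and Snap25, a synaptic fusion protein, at 12.3, 6.89, 0.14 and 26.1 CPM against 0.97, 4.26 and 3.47 CPM. Astrocyte markers summed to 372 to 615 CPM in KO and to 165.6, 464 and 453 CPM in old 1 to 3, and all 12 were positive (7 of 12 without old 1). Erythroid genes were the only marker sum without overlap, at 56.8, 125, 89.4 and 216 CPM in KO and 42.3, 53.01 and 42.3 CPM in old (p = 0.0571 in the exact two-sided permutation test, its smallest value, and 0.914 adjusted over 16 measures). No other measure of the 16 had an adjusted p below 0.971.

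**Figure D2:**
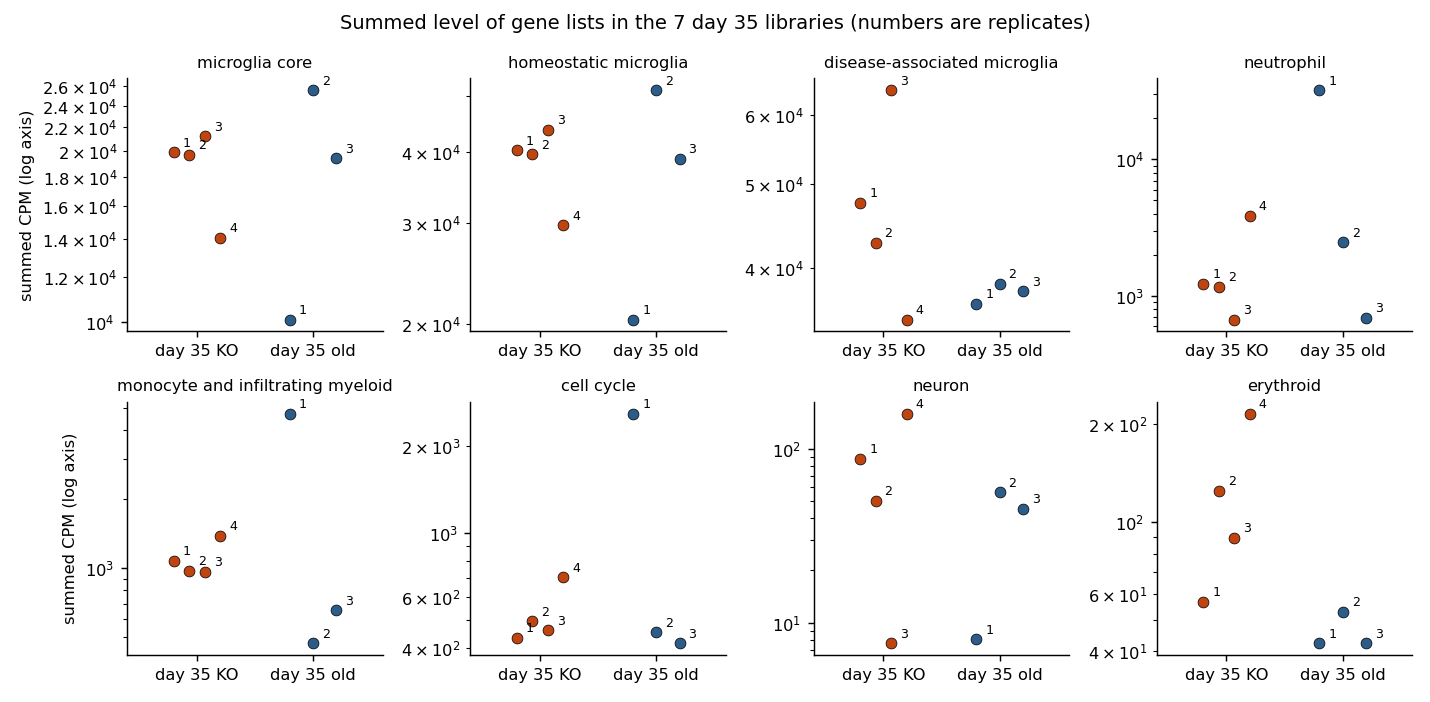
Summed CPM (log axis) of 8 gene lists in each of the 7 day 35 libraries, KO at the left and old at the right, with replicate numbers beside the points. Old 1 is highest for the neutrophil, monocyte and cell cycle lists and lowest for the microglia core and homeostatic lists, and the erythroid sum is the one panel in which the groups do not overlap.

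The day 35 pair was then set against the same pair of groups without EAE. The labels do not state whether the old mice carried the Cre allele. Between naive and day 35 old mice, EAE and any allele difference therefore cannot be told apart. In naive mice edgeR called 1634 of 13880 genes (11.8%), 730 higher (5.26%) and 904 lower (6.51%) in KO. That count was 664 without naive KO 4, 960 without naive old 1 and 1088 without naive old 3. The change of the KO to old difference from naive to day 35 was tested directly, as the day 35 log2 fold change minus the naive one, and edgeR called 1.05% of genes, 117 upward (0.843%) and 29 downward (0.209%). All 117 upward genes were lower in naive KO than in naive old, and all 29 downward genes were higher. In all but 2 of these called genes the difference was smaller at day 35. The naive difference enters the value by which these genes were chosen, and no gene was called in the day 35 pair. That choice favours opposite naive signs and smaller day 35 differences, which are therefore not separate results. The median absolute log2 fold change of these called genes was 1.16 in naive mice and 0.26 at day 35, beside 0.27 and 0.16 over all genes. For 95 of the 117 and 29 genes the day 35 interval lay within 1 log2 unit of 0. That share was no larger than the 68.8% of all genes with such an interval. Of the 1634 genes called in naive mice, 1308 had such an interval at day 35, a larger share than over all genes. The naive call and the day 35 interval use the same estimate of spread for each gene. A small spread favours both, so that this larger share is not a separate result. The count for the change, in both directions, was 520 without day 35 old 1 and included all but 8 of the 117 and 29 genes. It was 65 without day 35 old 3, 62 of them shared, and 72 without day 35 KO 3, 68 of them shared. It was 31 with only these 4 groups in the fit, and 323 by DESeq2. Leaving out naive libraries gave 62 without naive old 1, 73 without naive old 3, 321 without naive old 4, 93 without naive KO 1 and 87 without naive KO 4.

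**Figure D3:**
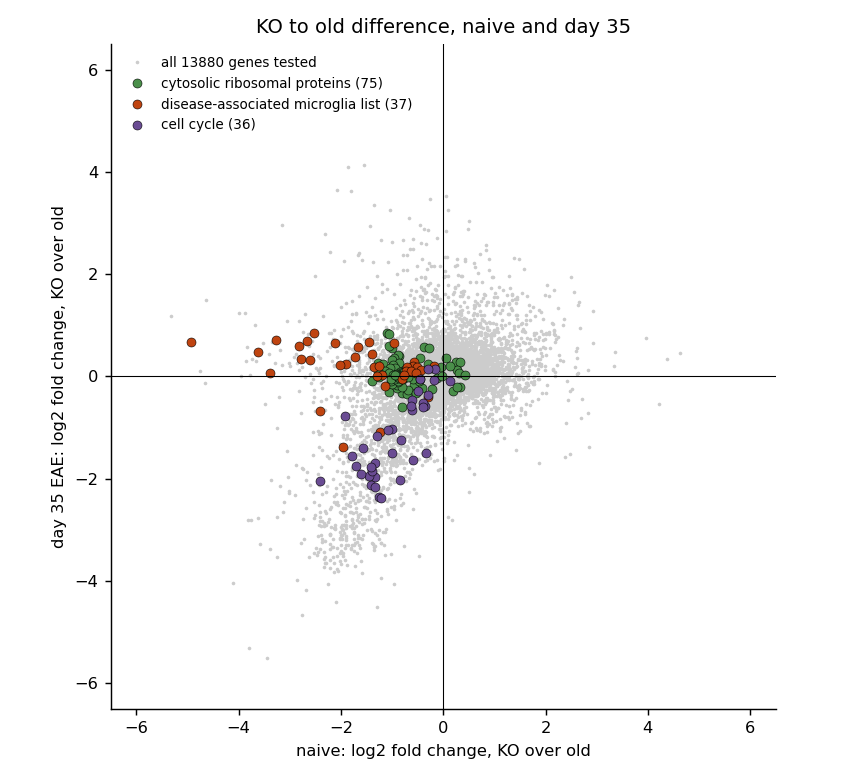
Log2 fold change of KO over old in naive mice (horizontal axis) and at day 35 (vertical axis) for all 13880 genes tested, with the disease-associated, ribosomal protein and cell cycle lists coloured. Most disease-associated and ribosomal genes lie left of 0 on the naive axis and near 0 on the day 35 axis, and cell cycle genes lie below 0 on the day 35 axis with old 1 included.

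Among the 45 lists the disease-associated list had the largest share of its genes called in this change. In naive mice 32 of its 37 genes were called lower in KO and none higher (median log2FC −1.36), beside 6.51% lower over all genes. The change was called upward for 15 and downward for none (median 1.55), beside 0.843% upward over all genes, and for 19 without day 35 old 1 and 10 without day 35 old 3. The 15 were Lpl, Clec7a, Itgax, Igf1, Csf1, Cst7, Cd63, Fth1, Ank, Hif1a, Ch25h, Ccl3, Timp2, Postn and Dkk2. The list of genes of aged microglia, which shares 8 of these 15, had 9 of 29 called upward.

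Lpl moved in opposite directions in KO and old mice. It was at 43.0, 52.01, 61.5 and 30.2 CPM in naive KO 1 to 4 and at 373, 276, 361 and 179 CPM in naive old 1 to 4 (log2FC −2.67, SE 0.272). With the day 35 levels given above, Lpl rose with EAE in KO (log2FC 2.29) and fell in old mice (log2FC −1.06), and the change of the difference was 3.35 (SE 0.391, edgeR adjusted p = 6.4e-05). Cxcl14 had a naive log2FC of −3.05 and a change of the difference of 4.14 (SE 0.589), and it rose by 2.64 in KO and fell by 1.498 in old mice. Ank, a transporter of pyrophosphate, rose by 0.64 in KO and fell by 1.19 in old (change 1.83, SE 0.296).

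Igf1 and Csf1 rose in KO and passed no test in old mice. Igf1 was at 14.1, 12.2, 15.1 and 2.64 CPM in naive KO and at 73.6, 64.1, 89.8 and 29.0 CPM in naive old, and its EAE change was 2.61 in KO (edgeR adjusted p = 8.5e-05) and −0.77 in old (0.177), a change of the difference of 3.38 (SE 0.561). Csf1 was at 30.7 to 57.6 CPM and 97.2 to 194 CPM in naive mice, with an EAE change of 2.41 in KO and 0.31 in old (change of the difference 2.10, SE 0.337). Clec7a, Itgax, Cst7 and Ccl3 had changes of the difference of 2.23, 2.15, 3.12 and 2.13, with EAE changes of 1.69, 1.59, 2.49 and 2.02 in KO that each passed the test, and of −0.54, −0.56, −0.63 and −0.11 in old mice that did not. Apoe, called lower in naive KO (log2FC −2.12) and risen in KO with EAE (log2FC 3.03), did not pass for the change of the difference (2.77, SE 0.763, edgeR adjusted p = 0.077).

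**Figure D4:**
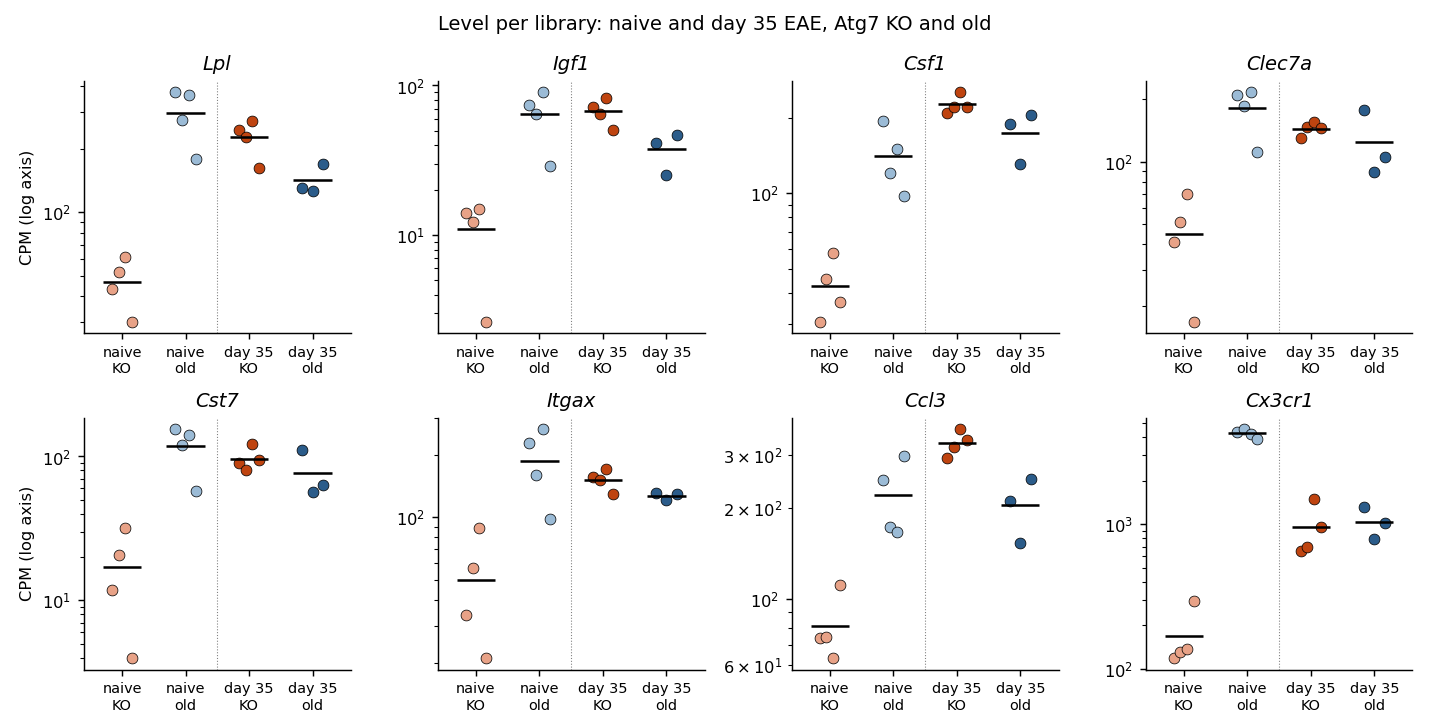
CPM per library (log axis) of 8 genes in naive KO, naive old, day 35 KO and day 35 old samples, with group means as bars. The naive KO points lie below the naive old points in every panel, and the day 35 points of KO and old lie close together or, for Igf1, Csf1 and Ccl3, slightly apart with KO higher.

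The genes with the largest change of the difference were scarce transcripts, whose fitted values depend on how counts near 0 are treated. Mamdc2 was at 0 to 0.29 CPM in naive KO and 1.398 to 10.1 CPM in naive old, and at 0.87 to 2.11 CPM in day 35 KO and 0.37 to 1.01 CPM in day 35 old (change 6.51, SE 1.02). The apolipoprotein gene Apoc4 (6.14), the Wnt antagonist gene Dkk2 (5.62) and the cation channel gene Trpc4 (5.25) followed, and their naive KO libraries were all at or below 0.64 CPM. In the other direction Esr1 had a change of −3.13 (SE 0.577), the interleukin-7 receptor Il7r −1.47, the basement membrane gene Nid2 −1.43 and Adamtsl2 −1.43. Il7r was at 35.3 to 56.5 CPM in naive KO and 16.6 to 26.6 CPM in naive old, and at 22.6 to 37.6 CPM in day 35 KO and 21.4 to 47.0 CPM in day 35 old. Cx3cr1 had a change of 4.53 (SE 0.686, edgeR adjusted p = 0.00199), and from naive to day 35 it rose by 2.50 in KO and fell by 2.04 in old mice. For Cx3cr1 and Esr1, EAE cannot be told apart from an allele difference between the naive and day 35 old mice, which was not tested. Gadd45b had a change of 2.28 (SE 0.272), rising by 1.79 in KO.

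Ribosomal protein genes formed the other large group. In naive mice 44 of 75 were called lower in KO (median log2FC −0.86), beside 6.51% of all genes, and at day 35 none was called, with a median of 0.03 and an interval within 1 log2 unit for 61. The change was called upward for 12, beside 0.843% of all genes, which became 8 without day 35 old 1 and 0 without day 35 old 3. Rps20 was at 52.4 to 69.7 CPM in naive KO and 106 to 162.5 CPM in naive old, and at 106 to 162.5 CPM in day 35 KO and 106 to 136.3 CPM in day 35 old (change 1.23, SE 0.25). KO 3 had the highest ribosomal sum at day 35 (6492 CPM, against 3873 to 4389 in the other KO and 4107 to 5101 CPM in the old libraries), and Rpl37 was at 110 CPM in KO 3 against 33.1 to 42.8 CPM in the other KO libraries. Mitochondrial respiration genes had 24 of 52 called lower in naive KO and 2 called upward in the change, Uqcrh and Cox4i1. Antioxidant genes had 10 of 20 lower in naive KO and 2 upward, Prdx1 and Fth1, the ferritin heavy chain, and among 35 lysosomal genes 11 were lower in naive KO and 2 were called upward, Glb1, the lysosomal beta-galactosidase, and Cd63.

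The naive old libraries also held more RNA of other myeloid cells. The neutrophil sum was 644 to 3094 CPM in naive KO and 7527 to 14310 CPM in naive old, and the monocyte sum 32.3 to 465 CPM and 872 to 1362 CPM. With the summed neutrophil markers as a further term, edgeR called 580 genes in naive mice and 253 for the change of the difference.

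**Figure D5:**
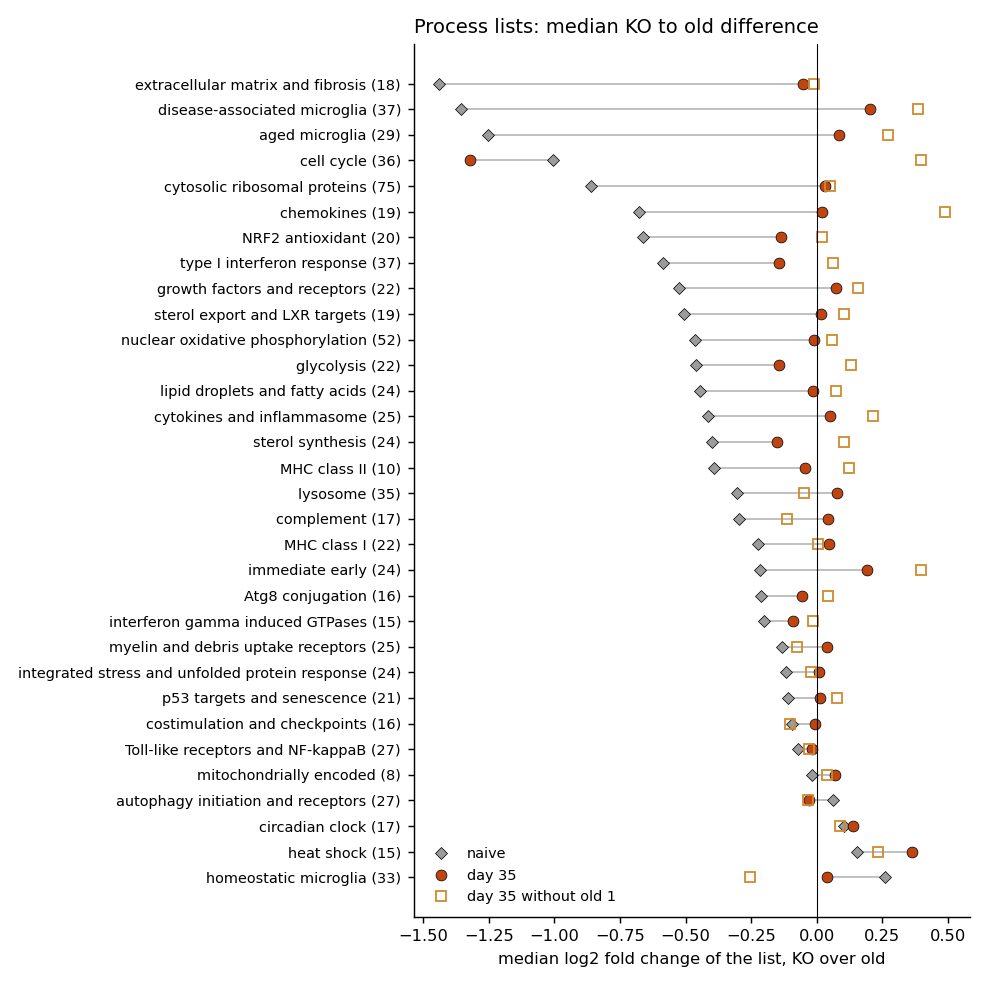
Median log2 fold change of KO over old for 32 process lists in naive mice (diamonds), at day 35 (circles) and at day 35 without old 1 (open squares), with the number of genes in parentheses. The disease-associated list goes from −1.36 in naive mice to 0.20 at day 35 and 0.39 without old 1, and the cell cycle list changes side from −1.32 to 0.40 when old 1 is left out.

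The EAE change was compared next within KO and within old mice, which share no library. In old mice it cannot be told apart from any difference in Cx3cr1 alleles between the naive and day 35 groups. edgeR called 2970 genes in KO (21.4%), 1608 higher (11.6%) and 1362 lower (9.81%) than in naive KO. In old mice it called 2555 (18.4%), 1440 higher (10.4%) and 1115 lower (8.03%) than in naive old. In the same direction in both were 1061, which is 35.7% of the KO calls and 41.5% of the old calls. Of the interferon gamma induced GTPases 13 of 15 rose in each, and Gbp2 rose by 1.89 in KO and 1.82 in old. Of the type I interferon response 28 of 37 rose in KO and 20 in old, and of MHC class I genes 14 of 22 rose in KO and 13 in old, where 2 fell. Homeostatic genes fell, 19 of 33 in KO and 12 in old, and P2ry12 fell by 1.34 in KO and by 0.86 in old. The disease-associated list had 19 of 37 higher and 1 lower in KO, Itgb2, and with 0 higher and 11 lower in old mice. Ribosomal genes had 37 of 75 higher in KO and 4 higher and 3 lower in old, and 22 of 52 respiration genes fell in old, against 1 in KO. Without day 35 old 1 the old change count was 2756, with 1300 higher and 1456 lower, so that the larger direction depended on old 1. The list counts for old mice were made only with old 1 included. The old change count was 973 without day 35 old 3, and the KO count 1597 without day 35 KO 4.

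Promoter sequence was read for 4 genes with an upward change whose start region holds a motif of a factor linked to microglial activation, chosen after the calls were seen. RefSeq promoters (GRCm38.p6, 250 bases before to 50 after the start) were found for 87 of the 117 upward genes. The kappaB consensus, bound by NF-kappaB, was in 11 of them (12.6%), against 6.31% of the 9916 tested genes with a promoter and 5.14% of all 27025. The AP-1 site TGANTCA was in 12 (13.8%, against 6.14% and 8.97%), the E-box TCACGTG of the TFE and MITF factors, which drive lysosomal genes, in 8 (9.2%, against 6.99% and 4.29%), and the PU.1 core GAGGAA in 36 (41.4%, against 31.2% and 31.3%). Motifs were searched on both strands and may overlap, no test was made, and a match is not evidence of binding. Capitals mark the match in each sequence, written 5′ to 3′ on the gene's own strand. Csf1 (chr3:107760420-107760719, minus strand) and Nfkbia, the NF-kappaB inhibitor and itself a target of that factor (chr12:55492598-55492897, minus strand; change of the difference 1.04, SE 0.202), hold a kappaB match. Glb1 (chr9:114400828-114401127, plus strand; 1.43, SE 0.262) holds the E-box and Itgax (chr7:128129300-128129599, plus strand) the AP-1 site.
Csf1: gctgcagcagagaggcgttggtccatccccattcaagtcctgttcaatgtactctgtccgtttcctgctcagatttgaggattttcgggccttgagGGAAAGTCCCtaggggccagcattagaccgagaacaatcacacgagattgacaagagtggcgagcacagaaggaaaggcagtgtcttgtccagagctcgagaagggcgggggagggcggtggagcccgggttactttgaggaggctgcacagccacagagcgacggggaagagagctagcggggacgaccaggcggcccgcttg
Nfkbia: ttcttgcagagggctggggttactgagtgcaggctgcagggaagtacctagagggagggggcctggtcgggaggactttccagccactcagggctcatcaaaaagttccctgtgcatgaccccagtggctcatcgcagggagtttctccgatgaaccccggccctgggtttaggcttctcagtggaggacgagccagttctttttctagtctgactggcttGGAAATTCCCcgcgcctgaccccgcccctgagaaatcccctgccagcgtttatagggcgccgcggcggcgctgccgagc
Glb1: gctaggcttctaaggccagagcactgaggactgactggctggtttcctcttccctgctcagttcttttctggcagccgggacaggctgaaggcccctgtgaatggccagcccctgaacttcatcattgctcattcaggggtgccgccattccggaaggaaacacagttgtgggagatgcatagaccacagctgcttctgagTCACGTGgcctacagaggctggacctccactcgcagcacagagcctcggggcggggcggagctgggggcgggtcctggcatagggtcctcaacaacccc
Itgax: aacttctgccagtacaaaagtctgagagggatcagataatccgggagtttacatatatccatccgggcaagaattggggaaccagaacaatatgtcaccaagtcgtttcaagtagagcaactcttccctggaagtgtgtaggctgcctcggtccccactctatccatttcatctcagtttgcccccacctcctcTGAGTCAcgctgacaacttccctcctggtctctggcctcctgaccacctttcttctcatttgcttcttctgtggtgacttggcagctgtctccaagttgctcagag
At day 35 Nfkbia was at 227 to 295 CPM in KO and 188 to 250 CPM in old libraries, and Glb1 at 42.7 to 64.6 CPM in KO and 43.0 to 56.2 CPM in old libraries. Both overlapped between the groups, as Itgax did, whereas Csf1 did not.

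Set against WT mice of the same day, KO and old microglia are given side by side, since both comparisons use the same 4 WT libraries. edgeR called 363 genes between KO and WT (2.62%), 248 higher (1.79%) and 115 lower (0.829%), and 1312 between old and WT (9.45%), 1043 higher (7.51%) and 269 lower (1.94%). The old count was 0 without old 1, 1967 without old 2 and 2044 without old 3. No WT library was left out, so that WT 3 entered every count. The KO calls were 125 higher and 36 lower without KO 1, 119 and 35 without KO 2, 48 and 15 without KO 3, and 130 and 43 without KO 4, and there were 777 in all without old 1. Of the disease-associated list 16 of 37 were higher in KO (median log2FC 1.06) and 16 in old (0.77). Lpl was higher by 2.05 in KO and by 1.37 in old, Igf1 by 2.94 and 2.10, and Csf1 by 1.18 and 0.80, each past the threshold. Ccl3 passed in KO (1.06) and was at 0.38 in old (edgeR adjusted p = 0.508), and the test of KO against old, given above, did not pass. Of 36 cell cycle genes 0 were higher in KO and 28 in old, and the ribosomal genes had 17 of 75 higher and 1 lower in KO and 22 higher in old.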

How the data were processed

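Per the labels' protocols, the library kit was SMARTer Stranded Total RNA-Seq (Pico). The submitters' processing notes name CASAVA, bcl2fastq, STAR and GRCm38, without roles or settings. The authors deposited raw read counts per gene for 46078 genes, and 2 of the 32 count columns were not used. Columns were joined to samples through the plate wells of the authors' deposited sample table, which also gave the EAE score. Gene symbols came from GENCODE M21 (GRCm38) and matched 98.16% of identifiers. Rows without a symbol held 0.0552% of counts.

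Counts were fitted in edgeR 4.0.16 under R 4.3.3 (filterByExpr with a minimum count of 10, TMM scaling, robust quasi-likelihood, 8 group means over all 30 libraries, totals 4712803 to 11034565), leaving 13880 genes. Adjusted p-values are Benjamini-Hochberg over all tested genes at 0.05. The 95% interval uses the t distribution with 22 degrees of freedom. CPM are counts scaled to TMM-adjusted library size. Single measures used exact permutation over samples (SciPy 1.17.1). The procedure was tested on simulated data. Named genes were Atg7, Cx3cr1, and the 12 largest day 35 fold changes each way among called genes, filled, since none was called, with the lowest p among genes with non-overlapping groups and a mean of at least 5 CPM in the higher group. They also included 4 each way for the naive pair and the change of the difference, and up to 4 genes of lowest p in each list, and other list members were named after their values were seen. The members and lists were chosen with earlier results of these data known. Alternatives were DESeq2 1.42.0, RLE size factors, other filters and sample sets, the i5 index, a neutrophil or a Y-linked term and leaving out libraries, and, added after seeing the data, voom with quality weights (limma 3.58.1) and leaving out 3 libraries. Replicate numbers are accession order. In the 4 naive and day 35 KO and old groups they coincide with the i5 index of the library, and the labels tie neither to an animal, litter or batch.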

Additional observations from a re-analysis of the deposited data

Results flagged for a closer look

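In 6 of 69 values tested within the 4 day 35 KO libraries, 1 library lay far from the other 3, judged by the gap to its nearest neighbour as a share of the whole range against Dixon's 95% critical value. Chance gives such a result in about 1 group in 20. KO 4 was the library apart in 5 of the 6. Its Mki67 level was 180 CPM against 54.7 to 75.6 CPM (share 0.833), its S100a9 level 972 CPM against 32.7 to 168.9 CPM (0.855), and its level of Ngp, a neutrophil granule gene, 741 CPM against 22.7 to 118 CPM (0.867). KO 4 was lowest for Dhx37, at 40.3 CPM against 45.6 to 46.6 CPM (0.844), and for the summed dendritic cell markers, at 838 CPM against 1038 to 1069 CPM (0.866). KO 3 was highest for Rpl37, at 110 CPM against 33.1 to 42.8 CPM (0.875).

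The KO to old difference differed between naive and day 35 mice, by edgeR's test of the difference itself, upward for 117 genes and downward for 29. Among the genes named, the day 35 minus naive log2 difference was 6.51 for Mamdc2, 6.14 for Apoc4, 5.62 for Dkk2 and 5.25 for Trpc4. It was −3.13 for Esr1, −1.47 for Il7r, −1.43 for Nid2 and −1.43 for Adamtsl2. Mamdc2, Apoc4, Dkk2 and Trpc4 were scarce in naive KO, and their fitted values depend on how very low counts are treated. Apoc4, Nid2 and Adamtsl2 did not pass in every fit with a library left out. For Esr1, EAE cannot be told apart from an allele difference between the naive and day 35 old mice.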

How the results depend on the processing

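The day 35 pair gave 0 calls under every alternative run except without day 35 old 3, the range over left-out libraries being 0 to 509. Leaving out libraries gave 664 to 1710 calls in the naive pair, 62 to 520 for the change of the difference, 1597 to 3716 and 973 to 3231 for the EAE change in KO and in old, and 63 to 777 and 0 to 2044 for KO and for old against WT. For the change of the difference DESeq2 gave 323, no filter on low counts 87, only the groups compared 31, a neutrophil term 253, and, chosen after seeing the data, voom with quality weights 999 and leaving out 3 libraries (day 35 old 1, naive old 4 and naive KO 4) 455. Against WT, DESeq2 gave 723 in KO, and no filter gave 143 in KO and 849 in old. The WT libraries were never left out, so that WT 3 entered every count against WT. The naive pair had 580 with a neutrophil term and 3769 with voom. The cause was not tested. Day 35 fold changes that turned sign were P2ry12 with a Y-linked term (0.0667), and with a neutrophil term and with voom Atg7 (0.27 and 0.27), Tmem119 (−0.144 and −0.0302), Mki67 (0.203 and 0.0471), S100a9 (0.60 and 0.79) and Ngp (0.43 and 0.58). Over left-out libraries these ran from −0.55 to 0.32 for Atg7, −0.43 to 0.0786 for Cx3cr1, −0.28 to 0.58 for Tmem119, −0.46 to 0.41 for P2ry12, −2.67 to 0.61 for Mki67, −4.58 to 0.29 for S100a9 and −5.17 to 0.25 for Ngp. The KO minus old difference in mitochondrial percent ran from −0.750 to 0.0499. Differences in summed CPM ran from −3795 to 3950 for core microglia, −15671 to 143 for neutrophil, −1589 to 539 for monocyte, −122 to 40.2 for border macrophage, −198 to 246 for dendritic cell, −134 to 5.95 for B and plasma cell, −11.2 to 74.6 for oligodendrocyte and −12.8 to 37.3 for Y-linked genes. The i5 index, which coincides with the replicate number in the KO and old groups, gave as a term 0 calls for the day 35 pair, 1508 for the naive pair and 181 for the change of the difference. No paired analysis was possible because the labels number no replicates and tie the i5 index to no animal, litter or batch.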
